A study of Mus musculus with 22 samples.

Results

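The 9 mice described here are the vehicle-treated mice with chronic liver damage in a study of 22 mice. They fall into 2 runs of title numbers, 76 to 81 (6 mice) and 92 to 94 (3 mice), and received no drug on either side. The sets were chosen on these same array values because their circadian clock genes differed, so the difference between them is given as a description, without p-values. All mice of the study were male C57BL/6J. The 19 model mice had received 1 injection of the liver carcinogen N-nitrosodiethylamine (DEN) and then carbon tetrachloride (CCl4), a hepatocyte toxin, every week, a regimen that gives fibrosis and hepatocellular carcinoma. After fibrosis was established they were randomized, and the 9 mice here received vehicle for 5 weeks. The other 10 model mice, 82 to 91, received nintedanib, a kinase inhibitor, at 50 mg/kg for 5 weeks. The 3 control mice, 4, 49 and 50, had received saline and oil, then vehicle, and their livers are labelled healthy. Each array held RNA from 20 mg of non-tumoral liver of 1 mouse, and such a piece of tissue mixes hepatocytes with all other liver cells.

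The labels give no hour of death, feeding state, cohort or scan date for any mouse. Whatever these were, they cannot be told apart from the run of title numbers. Nintedanib mouse 82 carries the number next to the first run, and nintedanib mice 83 to 91 lie between the 2 vehicle sets in number. The rule that chose the sets did not use these 10 mice. Their levels were known from earlier work on the same values when they were divided after mouse 82, and 1 side of that division is a single mouse. Their difference is therefore also a description without p-values.

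The circadian clock of a liver cell is a feedback loop of transcription. ARNTL (BMAL1) pairs with CLOCK or NPAS2 and activates genes through E-boxes, among them the Per and Cry genes, whose proteins return to block that pair. ARNTL also drives the REV-ERB receptors (Nr1d1, Nr1d2), which repress Arntl through elements that the ROR receptors use to activate it. The PAR bZIP factors DBP, TEF and HLF and their antagonist NFIL3 act on D-boxes and pass the rhythm to enzymes of liver metabolism. In mouse liver Arntl and Dbp are known for peaks at opposite times of day.

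Levels are the deposited log2 values of 13392 genes, 1 array per mouse. Arrays correlated at 0.970 to 0.983 (15 pairs) within mice 76 to 81, at 0.976 to 0.981 (3 pairs) within mice 92 to 94 and at 0.963 to 0.977 (18 pairs) between the sets, across genes. Array medians of the 9 mice ran from 2.83 to 2.96. For 423 genes (3.16% of those measured) every one of mice 92 to 94 was above every one of mice 76 to 81, and for 412 genes (3.08%) every one was below. Most of these differences were small, since 763 of the 835 were under 1 on the log2 scale. Genes without overlap whose means differed by at least 1 on the log2 scale are called higher or lower below, and there were 43 higher (0.321%) and 29 lower (0.217%). Of these 72 genes, 18 belonged to the clock lists, which hold the core clock genes, their known output genes and the kinases and ligases of clock proteins. Of the called genes, 8 differed by 2 or more on the log2 scale, namely Dbp, Usp2, Ciart, Upp2, Per2 and Wee1 (higher in mice 92 to 94) and Elovl3 and Arntl (lower).

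The 2 clock states were read from 4 marker genes, which were also among the values that chose the sets. Dbp, an activator at D-boxes, was at 9.06, 9.22 and 9.27 in mice 92, 93 and 94. In mice 76 to 81 it had a lowest level of 5.04, a median of 5.37 and a highest of 6.07. The sets did not overlap, and the mean was 3.77 ± 0.20 higher (difference ± SE of the limma fit, n = 3 and 6), a 13.6-fold difference. Arntl, the activator of the loop, ran the other way, at 3.17, 3.53 and 2.91 in mice 92 to 94 and from 5.90 to 6.17 (median 6.07) in mice 76 to 81. Its mean was lower by 2.84 ± 0.16 on the log2 scale, 7.16-fold, again without overlap. Usp2, a ubiquitin-specific protease with a rhythmic liver transcript, was at 7.50, 7.996 and 8.19 against 3.88 to 5.12 (median 4.70), a difference of 3.27 ± 0.23. Ciart, a repressor of the ARNTL pair, was at 4.94, 5.44 and 5.22 against 1.95 to 2.61 (median 2.25), a difference of 2.92 ± 0.27. Each of the 4 genes therefore placed the 9 mice in the same 2 sets, with a gap wider than the range within either set. The SD of Dbp, for example, was 0.37 in mice 76 to 81 and 0.11 in mice 92 to 94.

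**Figure D1:**
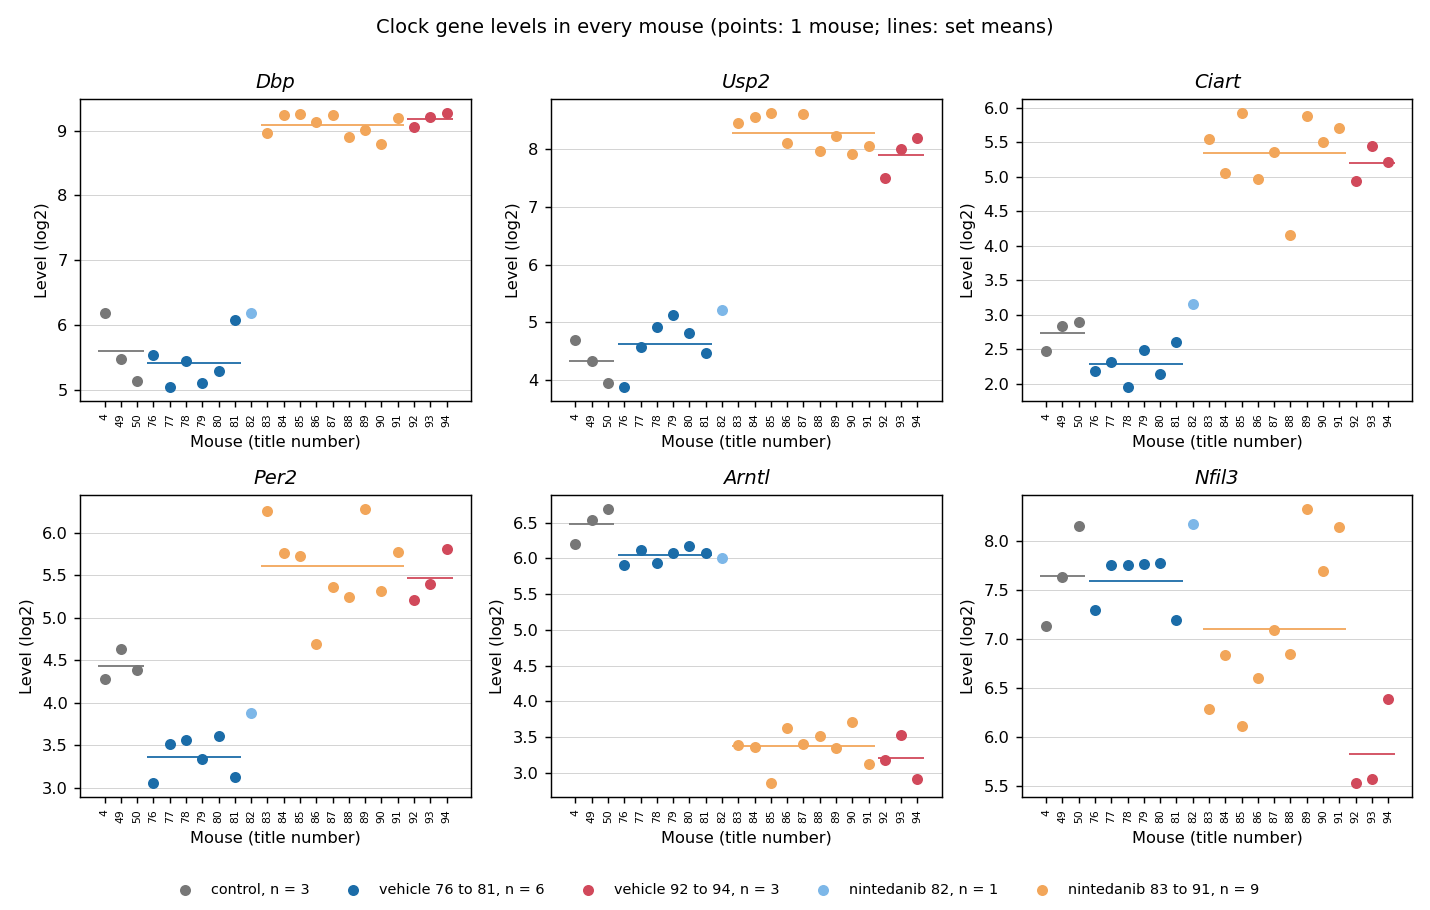
Level (log2) of 6 clock genes in each of the 22 mice, ordered by title number, with 1 point per mouse and a line at each set mean. Dbp, Usp2, Ciart and Per2 were high and Arntl low in vehicle mice 92 to 94, the controls and nintedanib mouse 82 lay near mice 76 to 81 for Dbp, Usp2 and Arntl, and Nfil3 varied widely among nintedanib mice 83 to 91.

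The 3 control mice and nintedanib mouse 82 had levels near those of mice 76 to 81. For Dbp the controls were at 6.18, 5.48 and 5.13 and mouse 82 was at 6.19. Nintedanib mice 83 to 91 ran from 8.79 to 9.26 (median 9.13), and so lay with vehicle mice 92 to 94. Arntl gave the same order, with controls at 6.20, 6.53 and 6.69, mouse 82 at 6.01 and mice 83 to 91 from 2.86 to 3.71 (median 3.39). Per2 differed from this pattern, because its control levels of 4.28, 4.64 and 4.39 lay between the 2 vehicle sets. Over the 72 called genes the control mean was nearer to mice 76 to 81 for 58 genes, mouse 82 was nearer to them for 58, and the mean of nintedanib mice 83 to 91 was nearer to mice 92 to 94 for 65. Over all genes the corresponding shares were 55.9%, 52.7% and 47.7%. The called genes were selected for a gap between the vehicle sets and all genes were not, so these shares are not directly comparable. Such a selection can also push a mean of 3 mice further out than a mean of 6.

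The core clock lists held 21 genes, of which 20 were measured. Among the 20, 6 were called higher (Dbp, Ciart, Per2, Tef, Per3 and Nr1d2), 2 were called lower (Arntl and Nfil3), and 3 more did not overlap at a smaller size (Clock, Cry1 and Cry2). Of the activators, Clock was at 5.51, 5.32 and 5.33 in mice 92 to 94 and from 6.17 to 6.44 (median 6.31) in mice 76 to 81, a difference of -0.92 ± 0.17. Npas2, which can take the place of CLOCK, overlapped between the sets, and so did Arntl2, with differences of -0.27 ± 0.15 and -0.03 ± 0.14. Both signals were low, at 2.27 to 2.995 for Npas2 and 2.29 to 2.60 for Arntl2, near or below the array medians. At such levels a difference may not show. Among the repressors, Per2 was at 5.21, 5.39 and 5.81 against 3.06 to 3.61 (median 3.42), a difference of 2.10 ± 0.25. Per3 was at 4.25, 3.58 and 4.001 against 2.42 to 2.93 (median 2.69), a difference of 1.26 ± 0.16. For both Per genes every one of mice 92 to 94 was above all 6 of the others.

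Per1 was at 5.96, 6.39 and 6.52 in mice 92 to 94, and mouse 78, at 5.97, reached that range while the other 5 of its set ran from 4.89 to 5.68. The Cry genes moved apart from each other. Cry2 was at 5.07, 5.39 and 5.05 against 4.14 to 4.59 (median 4.46), a difference of 0.76 ± 0.16, and Cry1 was at 5.35, 4.84 and 5.09 against 5.52 to 6.22 (median 5.87), a difference of -0.80 ± 0.17. Both are repressors of the same pair, so the members of 1 role did not share 1 direction. The E-box competitors Bhlhe40 and Bhlhe41 overlapped between the sets, with differences of 0.47 ± 0.27 and 0.11 ± 0.12.

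In the receptor arm, Nr1d2 (REV-ERB beta) was at 9.08, 8.98 and 8.86 against 7.62 to 8.28 (median 7.94), a difference of 1.02 ± 0.15. Nr1d1 (REV-ERB alpha) was at 4.38, 4.80 and 4.93 against 4.29 to 4.50, and the sets overlapped. Nfil3, the repressor at D-boxes, was at 5.54, 5.57 and 6.39 against 7.19 to 7.78 (median 7.75), a difference of -1.75 ± 0.38. Rorb, a receptor of the ROR family, overlapped between the sets, at levels of 2.15 to 2.40 that were below the array medians. The PAR bZIP factors were all above zero in difference. Tef was at 6.85, 7.12 and 7.10 against 5.19 to 5.50 (median 5.26), a difference of 1.72 ± 0.14, while Hlf was at 6.21, 6.72 and 6.65 against 5.77 to 6.33 (median 5.95) and overlapped through mice 92 and 81. None of the 6 measured kinases, ligases and partners of clock proteins was called, and the widest of their differences was 0.33 ± 0.21 for Sirt1, a deacetylase.

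**Figure D2:**
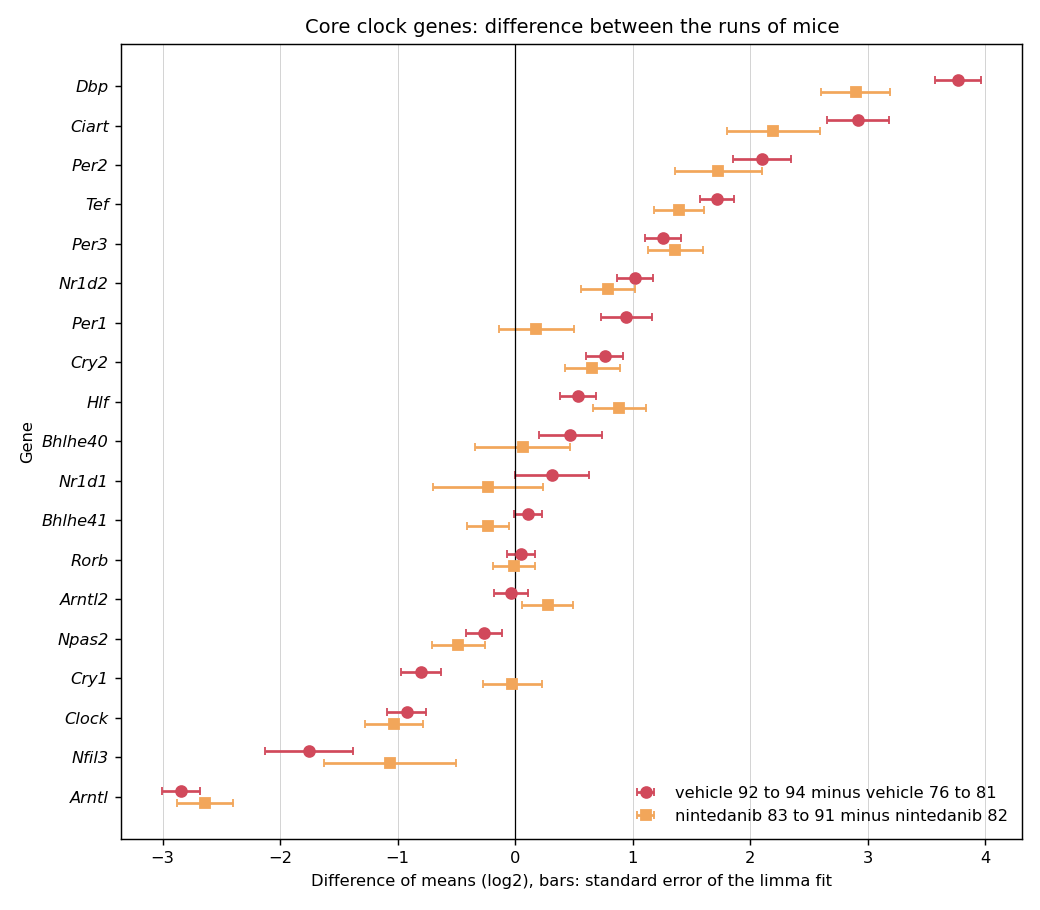
Difference of means (log2, x axis) of the core clock genes named in the text, for vehicle mice 92 to 94 minus 76 to 81 (circles) and nintedanib mice 83 to 91 minus mouse 82 (squares), with bars of 1 standard error from limma. Dbp (3.77 and 2.90) and Arntl (-2.84 and -2.64) lie at the ends in both, and Cry1 (-0.80 and -0.02) and Per1 (0.95 and 0.18) differ between them in size.

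Promoter windows are shown for 4 called clock genes whose RefSeq window holds a clock element, since these elements are the ones the factors named above are known to use. Each runs from 250 bases before to 50 after an annotated start (RefSeq, GRCm38.p6), is written 5′ to 3′ on the gene's strand, and has the matches in capitals. The letters searched, on both strands, were CACGTG (E-box), TTATGTAA or TTACGTAA (D-box), TAGGTCA or TGGGTCA (the element shared by ROR and REV-ERB) and TGACGTCA (cAMP response element), and no 2 matches overlapped in these windows. Ciart, higher in mice 92 to 94, has 3 E-boxes, at 116, 58 and 44 bases before its start. Per3, also higher, has 2 D-boxes, at 205 and 158 bases before it. Nfil3, lower, has a receptor element 12 bases before its start, and the second of the 2 overlapping Arntl windows, also lower, has one 30 bases after its start.
Ciart (chr3:95882179-95882478, minus strand): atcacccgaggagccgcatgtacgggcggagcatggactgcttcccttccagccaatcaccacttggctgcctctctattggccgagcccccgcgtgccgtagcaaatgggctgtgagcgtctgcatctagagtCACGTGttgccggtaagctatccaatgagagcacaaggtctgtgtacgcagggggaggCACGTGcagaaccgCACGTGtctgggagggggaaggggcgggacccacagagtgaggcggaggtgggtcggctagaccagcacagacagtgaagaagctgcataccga
Per3 (chr4:151044616-151044915, minus strand): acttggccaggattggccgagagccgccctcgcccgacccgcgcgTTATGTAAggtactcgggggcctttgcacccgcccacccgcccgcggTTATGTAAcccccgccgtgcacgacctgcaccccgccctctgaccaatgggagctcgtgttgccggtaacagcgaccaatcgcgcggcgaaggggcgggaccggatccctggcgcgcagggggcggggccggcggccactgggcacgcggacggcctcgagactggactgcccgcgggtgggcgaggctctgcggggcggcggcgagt
Nfil3 (chr13:52980990-52981289, minus strand): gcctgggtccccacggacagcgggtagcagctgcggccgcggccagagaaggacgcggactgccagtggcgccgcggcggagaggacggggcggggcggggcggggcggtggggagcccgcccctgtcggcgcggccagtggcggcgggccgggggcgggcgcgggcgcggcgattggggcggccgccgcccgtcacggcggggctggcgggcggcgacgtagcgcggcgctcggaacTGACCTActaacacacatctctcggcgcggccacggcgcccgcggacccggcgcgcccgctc
Arntl (chr7:113207261-113207560, plus strand): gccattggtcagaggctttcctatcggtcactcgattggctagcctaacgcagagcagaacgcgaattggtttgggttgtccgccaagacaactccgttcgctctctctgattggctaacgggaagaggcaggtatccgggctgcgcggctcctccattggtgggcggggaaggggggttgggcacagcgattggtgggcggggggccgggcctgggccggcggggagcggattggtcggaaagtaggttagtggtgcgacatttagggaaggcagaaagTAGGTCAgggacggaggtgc

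Tef has an E-box in each of 2 windows, 127 and 138 bases before the start. The windows of Dbp, Usp2, Upp2, Noct and Nr1d2, all called higher, held none of the letters searched. Neither did the first Arntl window, so the windows printed are not typical of the called clock genes. Of the measured genes, 10315 had at least 1 window (12828 windows), and an E-box lay in 8.09% of these, a D-box in 0.811%, a receptor element in 5.92% and a cAMP response element in 2.35%. Among the 36 windows of 28 genes called higher, 5 (13.9%) held an E-box, 2 (5.56%) a D-box, 1 (2.78%) a receptor element and none a cAMP response element. Among the 36 windows of 26 genes called lower, 3 (8.33%) held an E-box, none a D-box, 7 (19.4%) a receptor element and none a cAMP response element. These are counts of letters in short windows, and windows of 1 gene can overlap.

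Clock output genes, which the clock drives without being part of its loop, made up a further list of which 22 of 23 were measured. In this list 7 were called higher and 3 lower, and 18 of 22 did not overlap between the sets. After Usp2, the largest was Upp2, a uridine phosphorylase, at 8.98, 8.68 and 8.43 against 5.21 to 6.61 (median 6.20), a difference of 2.62 ± 0.26. Wee1, a kinase that holds cells before mitosis, was at 5.93, 6.05 and 6.07 against 3.56 to 4.15 (median 4.04), a difference of 2.04 ± 0.17. Noct (nocturnin) was at 7.80, 7.62 and 8.24 against 5.69 to 7.27 (median 6.21), a difference of 1.57 ± 0.26. Coq10b, a coenzyme Q binding protein, Gys2, the liver glycogen synthase, and Alas1, the rate-limiting enzyme of haem synthesis, were higher by 1.62 ± 0.21, 1.16 ± 0.17 and 1.03 ± 0.31. Por, the reductase that hands electrons to cytochromes P450, did not overlap either and was higher by 0.88 ± 0.16.

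The 3 output genes called lower were Elovl3, Insig2 and Cdkn1a. Elovl3, a fatty acid elongase, had the largest lower difference of any gene, at 5.77, 8.39 and 7.82 in mice 92, 93 and 94 against 9.65 to 10.82 (median 10.48). The difference was -3.07 ± 0.52, and mouse 92 lay 2.05 on the log2 scale below the other 2 of its set. Insig2, which holds sterol-regulated transcription factors in the endoplasmic reticulum, was at 8.64, 8.60 and 8.60 against 9.76 to 10.25 (median 9.97), a difference of -1.38 ± 0.18. Cdkn1a, the cell cycle inhibitor p21, was at 4.39, 3.82 and 4.67 against 5.07 to 5.89 (median 5.39), a difference of -1.14 ± 0.26.

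The same division of title numbers was described in the nintedanib mice. The difference is that of the mean of mice 83 to 91 from mouse 82, in a limma fit of all 22 arrays. Its standard error assumes that the lone mouse varies like the mice of the other sets, since its own spread was not measured. A gene is called here when all 9 mice lie on 1 side of mouse 82 and the difference is at least 1 on the log2 scale, which held for 40 genes above it (0.299%) and 73 below it (0.545%). Without the limit on size, all 9 mice were above mouse 82 for 11.8% of genes and below it for 8.38%. Of the 113 called genes, 95 had the same sign in the vehicle mice, 53 did not overlap between the vehicle sets and 38 were called there in the same direction.

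For Dbp the nintedanib difference was 2.90 ± 0.30, for Usp2 3.07 ± 0.34, for Wee1 2.01 ± 0.25 and for Tef 1.40 ± 0.21, each with all 9 mice above mouse 82. Ciart (2.20 ± 0.40), Per3 (1.36 ± 0.23) and Per2 (1.73 ± 0.37) were called as well. Arntl had a difference of -2.64 ± 0.24, with all 9 mice below mouse 82. The markers of the division were thus separated in the nintedanib mice too, but the division was placed with these levels known, so their separation is no independent support.

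With Clock (-1.03 ± 0.25), 7 of the 20 core clock genes were called in the nintedanib mice, and 16 of 20 had the sign they had in the vehicle mice. Nr1d2 had a difference of 0.79 ± 0.23 with all 9 mice above mouse 82, and Nfil3 one of -1.06 ± 0.56 with mouse 82 inside their range. In the output list 8 of 22 were called and 20 of 22 had the same sign. Insig2 had a difference of -1.29 ± 0.27 and Cdkn1a one of -2.17 ± 0.38, both with all 9 mice below mouse 82. For Cdkn1a, however, mouse 82 stood at 6.95, above all of vehicle mice 76 to 81 (5.07 to 5.89). Mice 83 to 91 ran from 3.99 to 5.44 and overlapped that vehicle range. Upp2 and Noct differed by 1.44 ± 0.38 and 1.43 ± 0.39, with all 9 mice above mouse 82. Every one of these values rests on the single mouse 82.

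Some genes called in the nintedanib mice overlapped between the vehicle sets. Fos, an immediate early transcription factor, was at 7.26 in mouse 82 and from 4.42 to 5.95 in mice 83 to 91, a difference of -2.26 ± 0.47. In the vehicle sets it was at 4.75, 5.50 and 5.66 against 5.09 to 6.49 (median 5.80). Ccnb1, the mitotic cyclin, differed by -1.69 and Cdca3, a cell division gene, by -1.58, from levels of 3.95 and 5.27 in mouse 82 that were above all vehicle mice. For these 3 genes mouse 82 therefore lay apart from vehicle mice 76 to 81 as well.

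Cry1 and Per1 showed other sizes in the nintedanib mice than in the vehicle mice. Cry1 was at 5.39 in mouse 82 and from 5.12 to 5.66 in mice 83 to 91, a difference of -0.02 ± 0.25, against -0.80 ± 0.17 between the vehicle sets. Per1 was at 6.48 in mouse 82, within the range of vehicle mice 92 to 94, and from 6.22 to 6.90 in mice 83 to 91. Whether the sizes differ between the drug groups was not tested, because the vehicle values chose the sets.

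Across the 72 called genes the vehicle and nintedanib contrasts, which share no mouse, had the same sign for 66 (91.7%), against 51.3% over all genes. The share was 18 of 18 in the clock lists and 48 of 54 outside them, and 42 of the 72 differed by at least 1 on the log2 scale with the same sign. Pearson's r across the 72 genes was 0.896, and across all genes it was 0.264. The 72 genes were selected for a vehicle difference of at least 1 on the log2 scale. Genes with small vehicle differences are therefore missing among them, and this alone can raise r. The clock genes that chose the sets are also among the 72. The shares and r values of the 72 genes and of all genes are therefore not directly comparable. Genes are not independent replicates and the division after mouse 82 was known, so these are descriptions. The 6 called genes of opposite sign were Slc25a30, Smoc2, Rnf186, Gas2l3, Gadd45a and Prss8, named here after their values were seen.

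**Figure D3:**
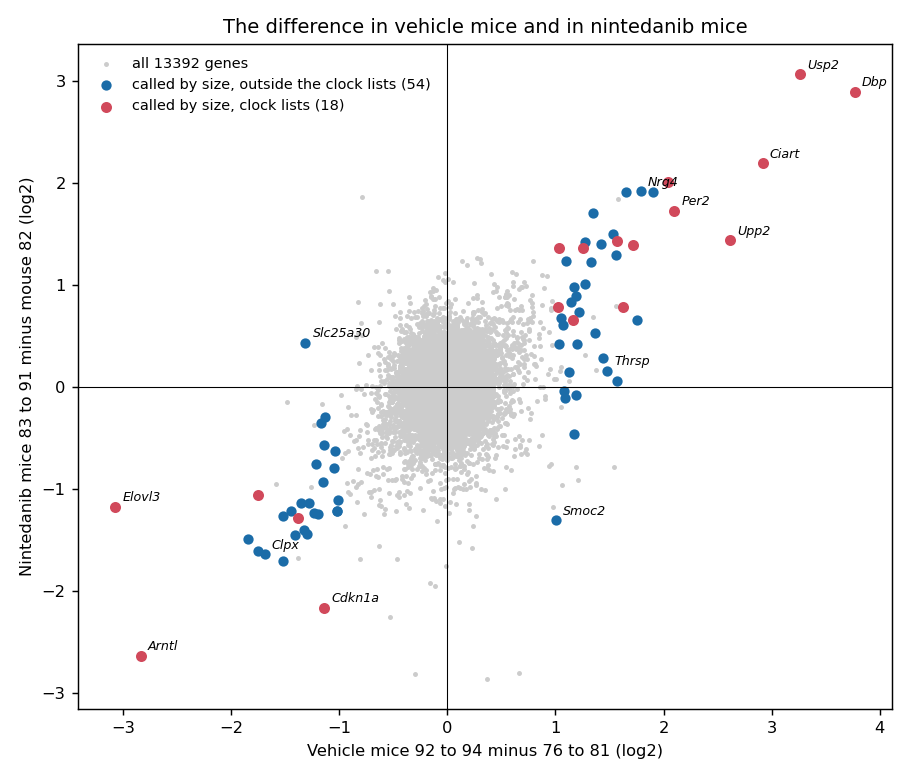
Difference of means (log2) of each gene in nintedanib mice 83 to 91 minus mouse 82 (y axis) against vehicle mice 92 to 94 minus 76 to 81 (x axis), with the 72 called genes in colour by membership of the clock lists. The 18 clock list genes lie in the 2 quadrants of equal sign, and Thrsp (1.48 and 0.16) lies near the x axis.

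Outside the clock lists, the largest higher differences included Nrep, Nrg4, Aacs, Pcsk4 and Clec2h. Nrg4, a neuregulin ligand of ERBB receptors, was at 6.32, 6.12 and 6.06 against 4.23 to 4.57 (median 4.37), a difference of 1.79 ± 0.21, and the nintedanib difference was 1.92 ± 0.32. Pcsk4, a proprotein convertase, was at 5.38, 5.90 and 6.02 against 3.82 to 4.61 (median 4.03), with a nintedanib difference of 1.91 ± 0.34. Nrep was at 7.76, 7.43 and 7.97 against 5.36 to 6.59 (median 5.69), with a nintedanib difference of 1.91 ± 0.46. Lonrf1 was at 6.61, 6.38 and 6.38 against 4.43 to 5.63, with a nintedanib difference of 1.70 ± 0.35. In all 4 genes mice 83 to 91 were above mouse 82, whose level lay within the range of vehicle mice 76 to 81.

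The largest lower differences outside the clock lists were those of Lrfn3, Chka, Clpx, Pdk4 and Slc30a10. Chka, a choline kinase at the start of phosphatidylcholine synthesis, was at 4.60, 4.67 and 4.69 against 6.14 to 6.64 (median 6.40), with a nintedanib difference of -1.61 ± 0.28. Clpx, the ATPase subunit of a mitochondrial protease, was at 8.81, 8.61 and 8.40 against 10.03 to 10.60 (median 10.31), with a nintedanib difference of -1.64 ± 0.24. Slc30a10, a manganese exporter, was at 5.13, 5.13 and 5.31 against 6.51 to 6.83 (median 6.72), with a nintedanib difference of -1.71 ± 0.27. In each of these 3 genes mice 92 to 94 lay closer to each other than to any of mice 76 to 81. Lrfn3, a synaptic adhesion protein, was at 3.91, 3.14 and 3.10 against 5.01 to 5.54 (median 5.18), and its nintedanib difference was -1.49 ± 0.35. Slc45a3 and Ndrg1 had differences of -1.30 and -1.19 between the vehicle sets and of -1.45 and -1.24 in the nintedanib mice.

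Genes of lipid synthesis were also among those called. Thrsp, a regulator of lipogenesis, was at 11.05, 10.86 and 10.89 against 9.21 to 9.76 (median 9.42), a difference of 1.48 ± 0.30, and controls were at 10.61, 11.06 and 10.98. Srebf1, the transcription factor of fatty acid synthesis genes, was at 10.08, 10.01 and 9.74 against 8.78 to 9.08 (median 8.90), and controls were at 9.24, 9.98 and 10.10. For both, mice 92 to 94 shared the range of the controls and mice 76 to 81 were below it. Mouse 82, at 10.60 for Thrsp and 9.32 for Srebf1, was above all of mice 76 to 81, and the nintedanib differences were 0.16 ± 0.45 and 0.43 ± 0.37, with mouse 82 inside the range of mice 83 to 91. In the fatty acid synthesis list of 13 measured genes, 2 were called higher and 1 (Elovl3) lower, and the median difference was 0.44 on the log2 scale, against -0.02 over all genes. In the nintedanib mice the median of this list had the opposite sign, -0.45, against 0.05 over all genes, and 9 of its 13 genes had the same sign in both. The mean level of the list in mouse 82, 8.23, lay within the range of mice 83 to 91 (7.70 to 8.28).

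Of 11 measured genes of cholesterol synthesis and uptake, Insig2 was called lower, and the median difference of the list was 0.35. In the nintedanib mice its median was -0.52, again of opposite sign, and 3 of the 11 genes had the same sign in both. That median rests on mouse 82 alone. The mean level of the list in mouse 82, 7.77, lay within the range of mice 83 to 91 (6.64 to 8.23). Aacs, an enzyme that turns acetoacetate into a precursor of lipids, was at 7.88, 7.51 and 7.61 against 5.04 to 6.41 (median 6.17), and its control levels of 7.05, 7.16 and 6.94 lay between the sets.

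Among 15 measured genes of fasting and gluconeogenesis, 3 were called lower and none higher. At any size, 4 were lower and 1 was higher without overlap, and the differences ran from -1.52 to 0.61 (median -0.25). Pdk4, the kinase that shuts off pyruvate dehydrogenase, was at 5.09, 4.96 and 5.11 against 6.14 to 7.23 (median 6.50), a difference of -1.52 ± 0.38. Fgf21, a hormone of the fasted liver, was at 4.46, 3.47 and 4.63 against 4.72 to 6.36 (median 5.48), and Igfbp1, a binding protein of insulin-like growth factors, was at 10.56, 9.83 and 11.07 against 11.31 to 11.86 (median 11.63). For Fgf21 the sets were close, with mouse 94 just below mouse 78. The gluconeogenic enzyme Pck1 had a difference of -0.0041 and G6pc one of -0.59, the latter without overlap. Nintedanib differences of Pdk4, Fgf21 and Igfbp1 were -1.27 ± 0.57, -1.41 ± 0.71 and -0.93 ± 0.59. Only Fgf21 was called there. For Pdk4, mouse 82 at 6.36 lay inside the range of mice 83 to 91 (4.44 to 6.76). For Igfbp1 all 9 mice were below mouse 82, by less than 1 in the mean. Gdf15, a stress-induced cytokine and p53 target, was at 5.15, 5.54 and 5.93 against 6.51 to 7.61 (median 7.08), a difference of -1.45 ± 0.40.

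Further lists held small differences without overlap. Of 10 endoplasmic reticulum stress genes the median difference was -0.30, and the chaperone Hyou1 was at 5.10, 5.52 and 5.26 against 5.72 to 6.43 (median 6.04). Manf, a secreted protein of the same response, was at 8.61, 8.39 and 8.09 against 8.69 to 9.51 (median 8.95). Hsph1, a heat shock protein, was lower by 0.58 ± 0.30, at 6.21, 6.39 and 6.34 against 6.66 to 7.33 (median 6.82). None of these 3 genes was called in the nintedanib mice, where the differences were -0.52 ± 0.29, -0.81 ± 0.33 and 0.25 ± 0.45. Of 23 measured genes of drug metabolism, 5 were above without overlap and 1 below, and only Alas1 was called. Cyp7a1, the first enzyme on the main route from cholesterol to bile acids, overlapped, at 9.37, 8.62 and 9.41 against 7.83 to 9.40 (median 8.39).

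The 27 measured cell cycle genes had a median difference of 0.03 and 4 without overlap, all above. Cdk1, the kinase of mitotic entry, was at 5.08, 5.09 and 4.66 against 4.14 to 4.57 (median 4.36). Mcm6, a subunit of the replicative helicase, was at 4.60, 4.89 and 4.55 against 3.63 to 4.40 (median 4.08), while nintedanib mouse 82 was at 4.71, above all of mice 83 to 91. Tubb2a, a beta tubulin, split the second set, with mouse 92 at 9.12 inside the range of mice 76 to 81 (9.07 to 9.80) and mice 93 and 94 at 7.61 and 7.52 below it.

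Of the 44 gene lists examined, 30 had no called member. They included all lists of fibrosis and of liver cell types, the hepatocyte identity, pericentral and periportal lists among them. Over all genes only 0.538% were called, so most short lists would hold no called member. An empty list is therefore no result about its members. In bulk tissue fewer cells of a type and less RNA per cell cannot be told apart, which applies to every such list here. In matrix genes both vehicle sets were above the controls. Col3a1, a fibrillar collagen, was at 7.40, 7.17 and 7.10 in mice 92 to 94 and from 6.59 to 7.22 (median 6.82) in mice 76 to 81, above the controls at 5.47, 5.78 and 5.60. Between the vehicle sets the 28 measured genes of collagens and other matrix proteins differed by -0.19 to 0.39 (median 0.13), and all 28 overlapped. Gpnmb, a marker of injury-associated macrophages, was at 5.76, 6.27 and 5.19 against 4.55 to 5.84 (median 5.03), with controls at 2.95, 2.65 and 3.40.

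Median differences of other lists of cell types were -0.03 for 19 stellate cell and myofibroblast genes, 0.04 for 15 injury macrophage genes, -0.30 for 9 Kupffer cell genes, -0.13 for 23 T and NK cell genes, -0.14 for 15 endothelial genes and -0.22 for 8 sinusoidal endothelial genes. In the sinusoidal list Dnase1l3, a secreted DNase, did not overlap, at 6.02, 5.93 and 6.07 against 6.45 to 6.64 (median 6.56). Mmp14, a membrane metalloproteinase, was likewise lower at 5.96, 5.67 and 5.74 against 6.10 to 6.34 (median 6.24). Neither reached a difference of 1, the values being -0.54 and -0.44. Red cell genes (median -0.05, 4 genes) and markers of pancreas, gut and fat (median -0.02, 14 genes) did not separate the sets. Of 20 listed hepatocyte identity genes only Foxa2 and Foxa3 were measured, with overlapping levels, and Cyp2f2, a periportal hepatocyte enzyme, was between 11.81 and 12.13 in all 9 mice.

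**Figure D4:**
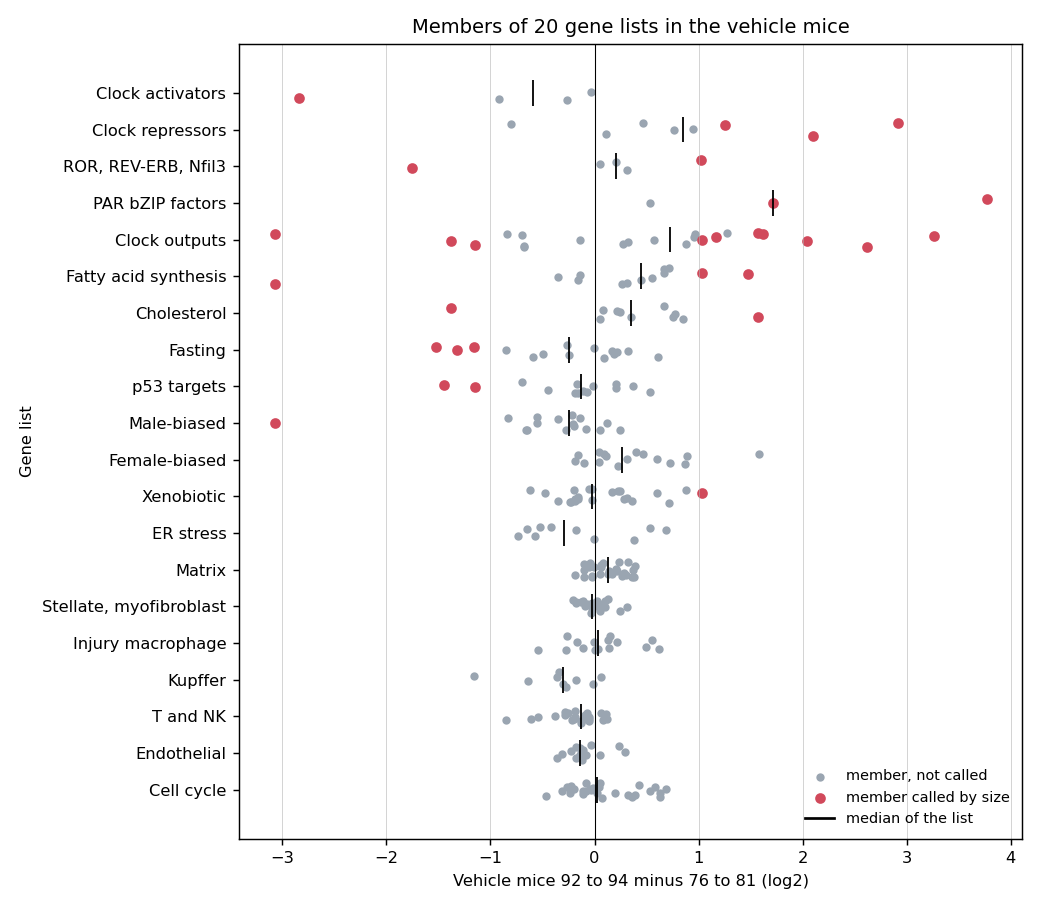
Difference of means between vehicle mice 92 to 94 and 76 to 81 (log2, x axis) for each measured member of 20 gene lists, with called members in red and a bar at each list's median. The 20 lists are a choice from 44, and the sets themselves were chosen on clock genes. Called members lie in the clock and output lists and in some others, such as fatty acid synthesis. The matrix, stellate and macrophage lists have none, where only 0.538% of all genes were called.

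The mice of 1 set were not alike in all genes. The median SD over genes was 0.199 in mice 76 to 81 and 0.165 in mice 92 to 94. Mouse 92 lay at least 1 on the log2 scale beyond both other mice of its set in 75 genes, mouse 93 in 35 and mouse 94 in 26. With 5 others to exceed, the mice of the first set stood apart in 1 to 16 genes, mouse 80 the most often.

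Among the 9 vehicle mice, mouse 92 was low in genes that are higher in male than in female mouse liver and high in genes of the opposite bias. Hsd3b5, a male-biased steroid dehydrogenase, was at 3.01 in mouse 92, 8.19 in mouse 93 and 6.06 in mouse 94, against 4.97 to 7.72 in mice 76 to 81 and 9.82 to 10.46 in controls. Serpina12, also male-biased, was at 4.89, 8.08 and 6.84. Slc22a26, a female-biased transporter, was at 5.51, 2.55 and 2.61, and Cyp17a1, a steroid hydroxylase, was at 7.62, 5.36 and 5.67. Over the 16 measured male-biased genes the mean level was 6.39 in mouse 92, 7.72 in mouse 93 and 7.41 in mouse 94, and over the 16 female-biased genes it was 4.45, 3.97 and 3.87. These levels of mouse 92 were not particular to it in the study. Nintedanib mice 83 to 91 ran from 6.32 to 7.25 in the male-biased list and from 4.01 to 4.56 in the female-biased list. Mouse 82 was at 6.65 and 4.22. Between the vehicle sets the median differences of these lists were -0.25 and 0.27, and the only called member of either was Elovl3, which is male-biased and was lowest in mouse 92. Its clock genes were at the levels of its set, with 9.06 for Dbp and 3.17 for Arntl.

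Mouse 80 stood apart in resident macrophage genes. Marco, a scavenger receptor, was at 8.53 in mouse 80 and from 4.84 to 6.72 in the other 5 mice of its set. Adgre1 (F4/80) was at 8.43 against 6.23 to 6.86, and Cxcl13, a B cell chemokine chosen after its values were seen, was at 8.63 against 4.13 to 5.56. The mean level of the 9 measured Kupffer cell genes was 6.79 in mouse 80 and from 5.63 to 6.08 in the others. Mouse 80 had a Dbp level of 5.30 and an Arntl level of 6.17, inside the range of its set. In mouse 93 the fetal liver gene Afp was at 6.90, with 4.55 and 3.94 in mice 92 and 94 and 2.86 to 4.74 in mice 76 to 81.

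**Figure D5:**
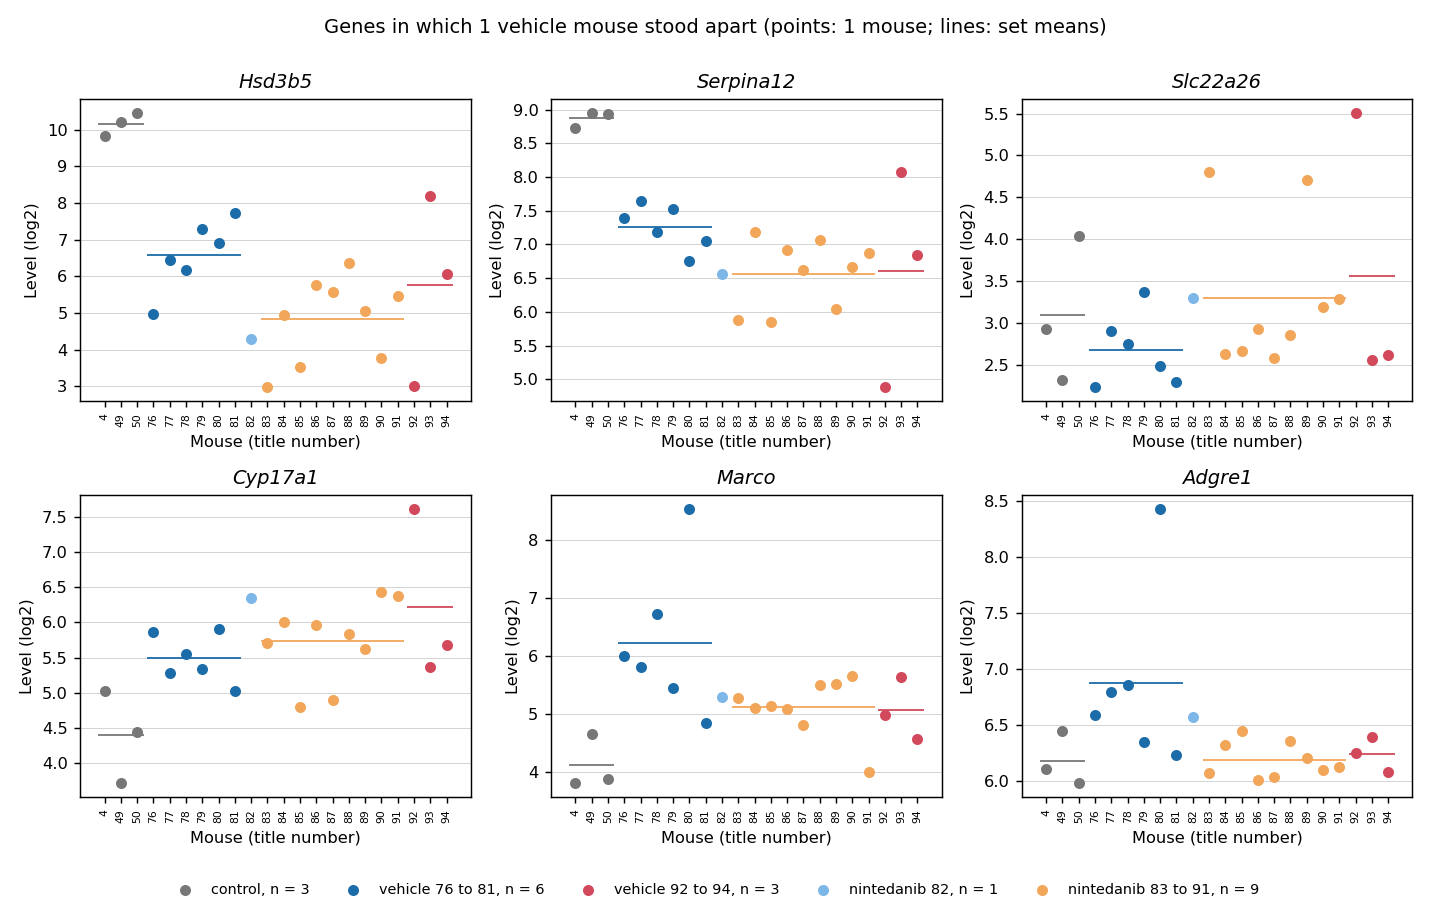
Level (log2) of 6 genes in each of the 22 mice, ordered by title number, with 1 point per mouse and a line at each set mean. Mouse 92 is at the low end for Hsd3b5 and Serpina12 and at the high end for Slc22a26 and Cyp17a1, and mouse 80 is highest for Marco and Adgre1.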

How the data were processed

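RNA of 22 mouse livers was measured on Affymetrix HT MG-430 arrays, 1 array per mouse. Per the labels' design text, the authors normalized the arrays with the robust multiarray algorithm and a custom probe set definition that maps probes to Entrez genes; software version and gene filters are not given in the sources used here. The deposited values are on a log2 scale and were used as they are. Of 13392 genes, 13242 were named through the RefSeq gene table (GRCm38.p6).

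The sets, the gene lists and the gene naming rule were chosen with earlier results of these data known. Named are the 4 marker genes, all core clock genes, the 15 largest differences each way among called genes, up to 4 members of each other list and the 8 largest each way among nintedanib differences with a limma adjusted p under 0.05. Set means were fitted with limma 3.58.1 in R 4.3.3 (5 set means, 22 arrays, 17 residual degrees of freedom). Both divisions, of the vehicle mice and of the nintedanib mice, were placed with the levels known, and mouse 82 stands alone, so both are described without a test. Tests of the nintedanib contrast and of the difference of the contrasts had been planned and are not reported for this reason. The fit was tested on simulated data. Mice were counted as replicates, and the number of arrays limits the precision. Some genes that the naming rule covers are not reported here.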

Additional observations from a re-analysis of the deposited data

Results flagged for a closer look

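For each gene with values in the text, the highest and lowest mouse of the sets of 6 and 9 was compared with the rest by Dixon's ratio. In 9 of 154 combinations of gene and set, a mouse lay far from the others. Chance flags about 1 in 20, so this count is close to what chance gives. Cxcl13 was named after its values were seen, so its flag was fixed in advance. Among mice 76 to 81, mouse 79 had the lowest Wee1 at 3.56, with the others from 3.95 to 4.15, which is on the far side from mice 92 to 94. Mouse 80 had the highest Adgre1 at 8.43 and the highest Cxcl13 at 8.63, with the others up to 6.86 and 5.56. Among nintedanib mice 83 to 91, mouse 86 had the lowest Upp2 at 7.69, mouse 83 the lowest Foxa3 at 6.51, and mouse 90 the highest Pdk4 at 6.76. Mouse 91 had the lowest Sirt1 at 5.34 and the lowest Marco at 4.003, and mouse 85 the lowest Igfbp1 at 9.48.

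Mcm6 differed in opposite directions in all mice of the contrasts. Each of vehicle mice 92 to 94 was above each of mice 76 to 81, and all 9 of nintedanib mice 83 to 91 were below mouse 82, with a mean difference of -0.51 on the log2 scale. The difference between the contrasts was not tested.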

How the results depend on the processing

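The count of 72 called genes stayed between 71 and 73 without the dimmest 25% of genes, with array medians subtracted or with quantile normalization repeated. It was 318 at a size of at least 0.5 and 8 at a size of at least 2, where 100% had the same sign in the nintedanib mice; 24 lists had a called member at 0.5, in place of 14. Leaving out each vehicle mouse gave 69 to 99 called genes, 82.8% to 94.2% of the same sign and 14 to 19 lists with a called member, with the highest count without mouse 94. In the nintedanib mice 113 genes were called, 110 to 125 under the same filter and normalizations, 112 without mice 89 and 91 and 113 to 139 without each of mice 83 to 91. The planned fit of nintedanib mice alone, the variance model with trend, the stricter threshold and the test of the difference between contrasts were not run, since they concern p-values that are not given. No paired analysis was possible because every mouse has a title number of its own. The nintedanib contrast has 1 mouse on 1 side, whose spread was not measured.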
